A study of Mus musculus with 4 samples.

Results

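Wnt ligands, their receptors and the secreted proteins that modulate them were compared between brain RNA of mice lacking Atm and of mice carrying it. Members were taken by gene symbol: every probe annotated to a gene whose symbol begins with Wnt, Fzd, Sfrp or Rspo and a digit, or with Dkk, together with Tcf7l2, Lef1 and Axin2. This gave 84 of 45281 probes, standing for 46 of 19057 named genes. There were 2 Atm-/- and 2 Atm+/+ samples of brain RNA, 1 Illumina bead array each, all of a mixed 129J x C57BL/6 background. Atm encodes a protein kinase activated by broken DNA, and its loss causes ataxia-telangiectasia in people. The sources used here give no allele of Atm, no age or sex and no dissected region, and they do not say that samples of 1 genotype came from separate mice. The p-values therefore reflect only how far these 4 samples scatter, and that scatter could be technical.

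Wnts are secreted, lipid-modified glycoproteins that bind Frizzled receptors together with the coreceptors Lrp5 and Lrp6. In the beta-catenin branch of the pathway, binding halts the breakdown of beta-catenin, which then acts with transcription factors of the TCF/LEF family, Tcf7l2 and Lef1 among them. Dickkopf and secreted Frizzled-related proteins hold the signal down outside the cell, R-spondins raise it by protecting the receptors, and Axin2 is both a brake on the pathway and one of its target genes. In the adult brain the pathway is known for roles at synapses, in blood vessels and in the identity of some neurons.

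Deposited log2 signals were used as they stood. A background level of 5.64 was drawn from the values, and probes above it on at least 2 arrays were tested. Of the 84 member probes 46 passed this filter, and they stood for 30 of the 46 genes. A probe that passed through 1 genotype only had to differ between the genotypes, so counts over the tested probes describe them and not all members. Where neither array of a genotype exceeded the level, the probe is described as at background in that genotype, and the fold is a lower bound (at least N-fold) that sets the other genotype's mean against the level. Changes are Atm-/- minus Atm+/+ on the log2 scale with a moderated standard error (SE, n = 2 per genotype), tested with limma. "Rose" and "fell" are used where the Benjamini-Hochberg adjusted p, taken over all 22383 tested probes, was under 0.05. Counts at an unadjusted p under 0.05 come without the share of all probes at that p, so they cannot be set against it.

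Among the 46 tested member probes 13 rose and 5 fell in Atm-/- brain. The rises were 28.3% of the tested member probes, where 6.98% of all tested probes rose, and the falls were 10.9%, where 6.06% of all fell. In either direction the shares were 39.1% and 13.0%. The median change was 0.16 for the tested member probes and 0.0036 for all tested probes. By gene, Wnt10a, Wnt2, Wnt7b, Dkk3, Dkkl1, Rspo2, Rspo3, Fzd2 and Fzd3 rose at 1 probe or more, and Wnt3, Wnt5a, Fzd7 and Tcf7l2 fell. The other 17 tested genes did not pass the threshold at any probe. The 2 arrays of one genotype lay wholly above or below those of the other at 32 tested member probes (69.6%), against 59.8% of all tested probes.

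Atm itself fell at 2 of its 3 tested probes. Probe ILMN_1258206 read 5.59 and 5.27 in Atm-/-, both at background, against 7.75 and 7.84 in Atm+/+, at least 4.46-fold lower (limma adjusted p = 0.00224), and ILMN_2783896 was at least 1.77-fold lower (adjusted p = 0.0205). The brightest Atm probe, ILMN_2492491, annotated to no transcript, read 9.66 and 10.61 in Atm-/- against 9.72 and 9.32 in Atm+/+, with overlapping genotypes and a difference of 0.61 ± 0.37 (adjusted p = 0.308), and the last probe was too dim to be tested. The brain-region and cell-type markers differed between the same samples. Of the tested cortical and hippocampal markers 10 of 12 rose, as did 6 of 9 striatal and 4 of 12 endothelial ones, with 0 falls in each list, also at an unadjusted limma p under 0.05. Of the tested markers 7 of 9 of cerebellar granule cells and interneurons fell, 4 of 4 of Purkinje cells, 9 of 9 of the brainstem, 7 of 9 of the choroid plexus, 5 of 9 of the meninges and 5 of 11 of astrocytes, with 0 rises at either p. Of oligodendrocyte markers 1 of 9 fell, and of 8 microglial markers 0 passed in limma, with 3 higher at an unadjusted p under 0.05. Summed over the list, cortical and hippocampal markers had linear signals of 64093 and 57854 in Atm-/- and 4732 and 9210 in Atm+/+, where Icam5, Crym, Tbr1 and Emx1 were at background. Purkinje cell markers summed to 4567 and 4575 in Atm-/-, where Pcp2, Lhx1 and Lhx5 were at background, and to 54938 and 56491 in Atm+/+. Most of these sums was Pvalb, at 12.13 and 12.13 in Atm-/- against 15.47 and 15.51 in Atm+/+ on the log2 scale. The genotype of a sample and the brain regions it held therefore cannot be told apart, and in bulk RNA neither can fewer cells of a type and less RNA per cell. The part of the regions in the changes of the Wnt genes was not tested.

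The stretch before the start site is shown for the 5 changed members that RefSeq's table of GRCm38.p6 promoters covers, 2 that rose (Wnt2, Dkkl1) and 3 that fell (Wnt3, Fzd7, Tcf7l2). The series concerns histone H3 lysine methylation by EZH2, and Polycomb complexes are known to bind CpG-rich promoters, so the CpG dinucleotides are set in capitals. Each line is the 250 bases before the annotated start, 5′ to 3′ on the gene's own strand, and for Tcf7l2, with 2 starts in the table, the outermost was taken.
Wnt2 (chr6:18030446-18030695, minus strand): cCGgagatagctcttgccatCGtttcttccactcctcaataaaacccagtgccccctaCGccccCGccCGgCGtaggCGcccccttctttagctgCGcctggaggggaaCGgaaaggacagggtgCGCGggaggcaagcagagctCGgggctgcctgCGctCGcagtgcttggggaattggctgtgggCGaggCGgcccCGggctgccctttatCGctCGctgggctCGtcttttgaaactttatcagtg
Dkkl1 (chr7:45211884-45212133, minus strand): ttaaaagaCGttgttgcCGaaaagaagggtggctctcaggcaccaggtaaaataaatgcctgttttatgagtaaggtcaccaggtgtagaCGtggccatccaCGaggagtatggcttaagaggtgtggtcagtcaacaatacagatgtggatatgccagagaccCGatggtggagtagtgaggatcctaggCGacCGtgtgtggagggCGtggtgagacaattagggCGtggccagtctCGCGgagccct
Wnt3 (chr11:103773925-103774174, plus strand): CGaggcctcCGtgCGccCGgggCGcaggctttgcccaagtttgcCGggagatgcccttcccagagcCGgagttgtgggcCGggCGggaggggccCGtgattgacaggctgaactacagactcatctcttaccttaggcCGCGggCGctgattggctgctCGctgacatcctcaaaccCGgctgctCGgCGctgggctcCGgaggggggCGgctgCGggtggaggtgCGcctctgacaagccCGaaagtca
Fzd7 (chr1:59481897-59482146, plus strand): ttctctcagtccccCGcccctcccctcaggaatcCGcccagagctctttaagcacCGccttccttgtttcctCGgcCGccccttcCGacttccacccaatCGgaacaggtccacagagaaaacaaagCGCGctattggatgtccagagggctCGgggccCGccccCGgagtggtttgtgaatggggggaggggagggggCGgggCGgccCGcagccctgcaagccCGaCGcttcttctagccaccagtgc
Tcf7l2 (chr19:55741560-55741809, plus strand): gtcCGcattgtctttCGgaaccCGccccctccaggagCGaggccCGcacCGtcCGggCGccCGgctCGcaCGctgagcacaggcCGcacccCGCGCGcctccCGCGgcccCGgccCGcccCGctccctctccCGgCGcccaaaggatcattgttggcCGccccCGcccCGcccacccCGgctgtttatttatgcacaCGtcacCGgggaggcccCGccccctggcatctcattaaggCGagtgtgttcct

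These windows held 20 CpGs in Wnt2, 11 in Dkkl1, 22 in Wnt3, 17 in Fzd7 and 30 in Tcf7l2. The median was 23 over the 31 member genes with a window and 6 over all 32851 windows in the table. As many CpGs as in Tcf7l2 or more were found in 5.94% of all windows, as many as in Wnt3 in 14.8%, and as many as in Dkkl1 in 35.6%. All 5 windows thus held more CpGs than the median of all windows, before genes that rose and genes that fell. Dkkl1 had the fewest, and its GC content of 52.4% equalled the median of all windows. The TCF/LEF motif was searched on both strands as CTTTGAA or CTTTGAT only, and its other forms, such as CTTTGTT, were not searched. The searched letters were in none of the 5 windows and in 7.48% of all windows. Among the 31 member windows they were in 2 (Dkk1 and Wnt11, both at background in these arrays). A window without these letters says nothing about binding of the factors.

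Ligands moved in both directions. Wnt10a, known in mouse and human for tooth and skin appendage development, had the largest change of any tested member probe. It read 9.06 and 9.11 in Atm-/- against 5.12 and 5.55 in Atm+/+, where it was at background. The fitted rise was 3.74 ± 0.27 (limma adjusted p = 0.000543), which makes it at least 10.9-fold higher. Wnt2, a ligand of the beta-catenin branch, was likewise at background in both Atm+/+ samples. It read 7.55 and 8.01 in Atm-/- against 4.94 and 4.97 in Atm+/+, a rise of 2.83 ± 0.27 (limma adjusted p = 0.00141) and at least 4.42-fold. The probes of Wnt10a and Wnt2 passed the filter through the Atm-/- arrays alone, and fits without 1 array kept that filter. Both genes had 1 probe each, and both calls held whichever array was left out, with adjusted p up to 0.00182 for Wnt10a and 0.0115 for Wnt2.

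Wnt7b, a ligand made by neurons and glia that acts on brain endothelium and on dendrites, rose at 1 of its 2 probes. ILMN_2789692 read 11.29 and 11.21 in Atm-/- against 10.21 and 9.26 in Atm+/+, a rise of 1.52 ± 0.35 (limma adjusted p = 0.0327). The Atm+/+ arrays were 0.94 apart on the log2 scale at this probe, and the Atm-/- arrays lay above both. It was no longer past the threshold when Atm-/- replicate 1 (adjusted p = 0.209) or 2 (0.176) was dropped, or when all probes were tested without a filter (0.0758). The other Wnt7b probe, ILMN_2456957, read 7.84 and 7.91 in Atm-/- against 7.37 and 7.97 in Atm+/+, with overlapping genotypes and a change of 0.21 ± 0.29 (adjusted p = 0.683).

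Wnt3 and Wnt5a were the ligands that fell. Wnt3, which in the cerebellum is known from Purkinje cells, was at background in Atm-/- at 5.07 and 5.28, against 6.92 and 7.02 in Atm+/+. It fell by 1.80 ± 0.25 (limma adjusted p = 0.00592), at least 2.52-fold lower, and dropping Atm-/- replicate 1 (adjusted p = 0.0939) or 2 (0.0581) ended the call. Wnt5a, the best known ligand of the branches that do not use beta-catenin, fell at both its tested probes. ILMN_2511913 read 7.47 and 7.77 in Atm-/- against 8.60 and 9.18 in Atm+/+, and fell by 1.27 ± 0.30 (limma adjusted p = 0.0354). ILMN_2472917 read 5.75 and 5.32 in Atm-/- against 6.48 and 6.75 in Atm+/+, and fell by 1.08 ± 0.28 (adjusted p = 0.0462). The genotypes did not overlap at either probe. Without an Atm-/- array the adjusted p was 0.193 to 0.468 at these probes, and with all probes tested it was 0.0626 and 0.0640, so both calls depended on those choices.

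Several further ligands were measured without passing the threshold. Wnt7a, a ligand made by cerebellar granule cells among others, read 9.20 and 9.32 in Atm-/- against 10.01 and 10.48 in Atm+/+, a difference of -0.98 ± 0.28 (limma adjusted p = 0.0609). Wnt5b differed by -0.77 ± 0.26 (adjusted p = 0.0948). At these genes the genotypes did not overlap. Wnt6 had 2 tested probes, and at both the Atm+/+ samples lay far apart from each other. ILMN_2901765 read 5.70 and 5.93 in Atm-/- against 8.50 and 6.54 in Atm+/+, and ILMN_2423835 read 6.19 and 6.33 in Atm-/- against 8.47 and 7.02 in Atm+/+. The differences of -1.71 ± 0.58 and -1.48 ± 0.46 did not pass (adjusted p = 0.0962 and 0.0757). Wnt4, a ligand of kidney and reproductive tract development that neurons also express, differed by 1.26 ± 0.41 at ILMN_2512663 (adjusted p = 0.0886) and 0.45 ± 0.29 at ILMN_2889641 (adjusted p = 0.342). At the first of these Wnt4 probes the Atm-/- samples read 7.97 and 7.99 and the Atm+/+ samples 6.09 and 7.35. Wnt3a, Wnt16 and Wnt9b lay near the background level with differences of 0.18, 0.16 and 0.16. Wnt1, Wnt2b, Wnt8a, Wnt8b, Wnt9a, Wnt10b and Wnt11 had no tested probe.

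**Figure D1:**
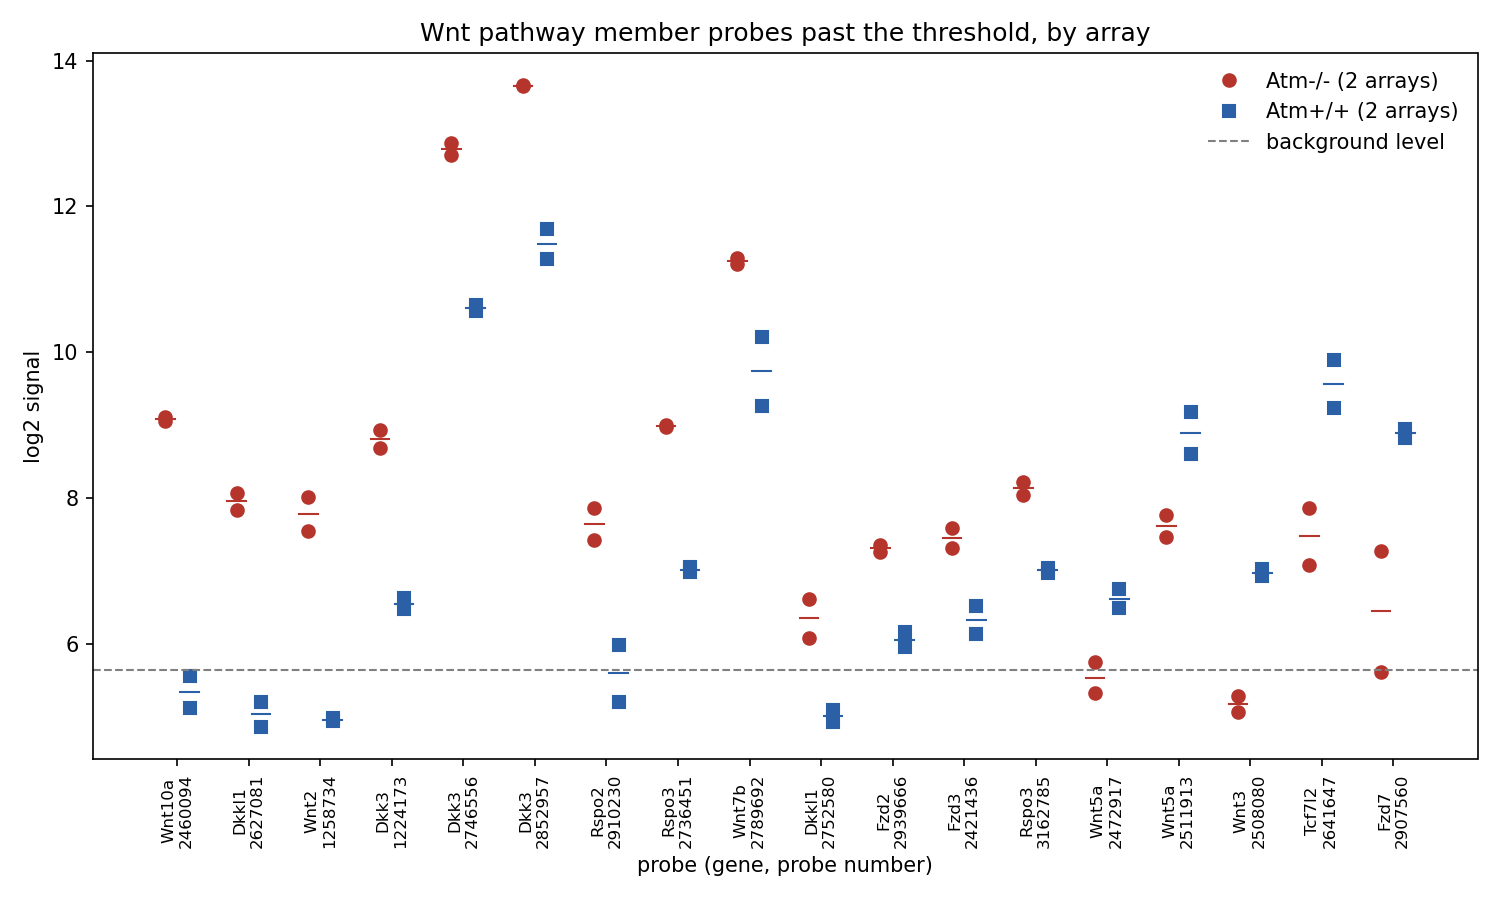
Log2 signal (vertical axis) of the 18 member probes past the threshold, with 2 Atm-/- arrays as circles, 2 Atm+/+ arrays as squares, short lines for the means and a dashed line for the background level of 5.64. Probes run from the largest rise (Wnt10a, 3.74) to the largest fall (Fzd7, -2.44), and the genotypes do not overlap at any of the 18, which the test selects for.

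In the Dickkopf family 2 of 5 genes, Dkk3 and Dkkl1, had tested probes. Dickkopf proteins are secreted. Dkk1 is the classical inhibitor that binds the coreceptor Lrp6, whereas Dkk3 is a divergent member without a settled role as a Wnt antagonist, and Dkkl1, also called soggy, resembles Dkk3. All 5 tested probes of the family rose, 3 of Dkk3 and 2 of Dkkl1, and both of Dkkl1 passed the filter through the Atm-/- arrays alone. Dkk3 read 13.66 and 13.65 in Atm-/- at ILMN_2852957 against 11.69 and 11.28 in Atm+/+, and 12.71 and 12.86 in Atm-/- at ILMN_2746556 against 10.64 and 10.56 in Atm+/+. At its dimmest probe, ILMN_1224173, it read 8.94 and 8.68 in Atm-/- against 6.62 and 6.48 in Atm+/+. The rises were 2.17 ± 0.27, 2.18 ± 0.25 and 2.26 ± 0.26 (limma adjusted p = 0.00361, 0.00259 and 0.00255), or 4.50-fold to 4.79-fold. The 3 probes thus gave nearly 1 value from different parts of the signal range, and each call held whichever array was left out (adjusted p up to 0.0357).

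Dkkl1 was at background in both Atm+/+ samples at all its probes. At ILMN_2627081 it read 8.07 and 7.84 in Atm-/- against 5.20 and 4.86 in Atm+/+, a rise of 2.92 ± 0.27 (limma adjusted p = 0.00114) and at least 4.97-fold, which held whichever array was left out (adjusted p up to 0.00816). At ILMN_2752580 it read 6.62 and 6.08 in Atm-/- against 4.92 and 5.09 in Atm+/+, at least 1.63-fold higher (adjusted p = 0.0260). Dropping Atm-/- replicate 1 (adjusted p = 0.341) or 2 (0.114) ended that call. The last Dkkl1 probe, ILMN_2823612, was at background on all 4 arrays, and so were the probes of the inhibitors Dkk1, Dkk2 and Dkk4. The cortical and hippocampal markers that rose in these samples are given above, and their part in the rise of Dkk3 and Dkkl1 was not tested.

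Secreted Frizzled-related proteins, which carry a Frizzled-like domain and bind Wnts outside the cell, gave 0 calls among 3 tested probes in limma, with 1 lower at an unadjusted p under 0.05. Sfrp1 read 7.43 and 7.87 in Atm-/- against 8.50 and 8.67 in Atm+/+ at ILMN_1231689, a difference of -0.93 ± 0.27 (limma adjusted p = 0.0677). At its other probe, ILMN_2604282, the Atm-/- samples read 6.39 and 6.08 and lay between the Atm+/+ samples at 5.29 and 7.08, so the genotypes overlapped (difference 0.05 ± 0.54). Sfrp5 had the same form, with 6.72 and 6.37 in Atm-/- inside the Atm+/+ values of 5.55 and 7.03. Sfrp2 and Sfrp4 were at background on all 4 arrays.

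R-spondins rose at 3 of their 4 tested probes. They are secreted proteins that bind Lgr4, Lgr5 and Lgr6 and keep the ubiquitin ligases Znrf3 and Rnf43 from removing Frizzled receptors. Rspo3 read 8.97 and 9.004 in Atm-/- at ILMN_2736451 against 6.98 and 7.05 in Atm+/+, a rise of 1.97 ± 0.25 (limma adjusted p = 0.00384). At ILMN_3162785 it read 8.05 and 8.22 in Atm-/- against 6.97 and 7.05 in Atm+/+, a smaller rise of 1.12 ± 0.25 (adjusted p = 0.0293). Rspo2 read 7.42 and 7.86 in Atm-/- at ILMN_2910230 against 5.21 and 5.98 in Atm+/+, with 1 of the Atm+/+ arrays at background, and rose by 2.04 ± 0.34 (adjusted p = 0.0108). The genotypes were apart at each of these probes.

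The R-spondin calls were lost in part without an Atm-/- array, and calls over all probes were also fewer there. Rspo3 was lost at the first probe without replicate 2 (adjusted p = 0.0514) and held without replicate 1 (0.0477), and at the second it was lost without either (0.259 and 0.357). Rspo2 was lost without replicate 2 (0.0953). Its other probe, ILMN_2549371, read 6.10 and 5.60 in Atm-/- against 5.03 and 5.27 in Atm+/+ and was too dim to be tested. Rspo1 differed by 0.11 ± 0.27 (adjusted p = 0.819), and Rspo4 was above background on 1 array only.

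**Figure D2:**
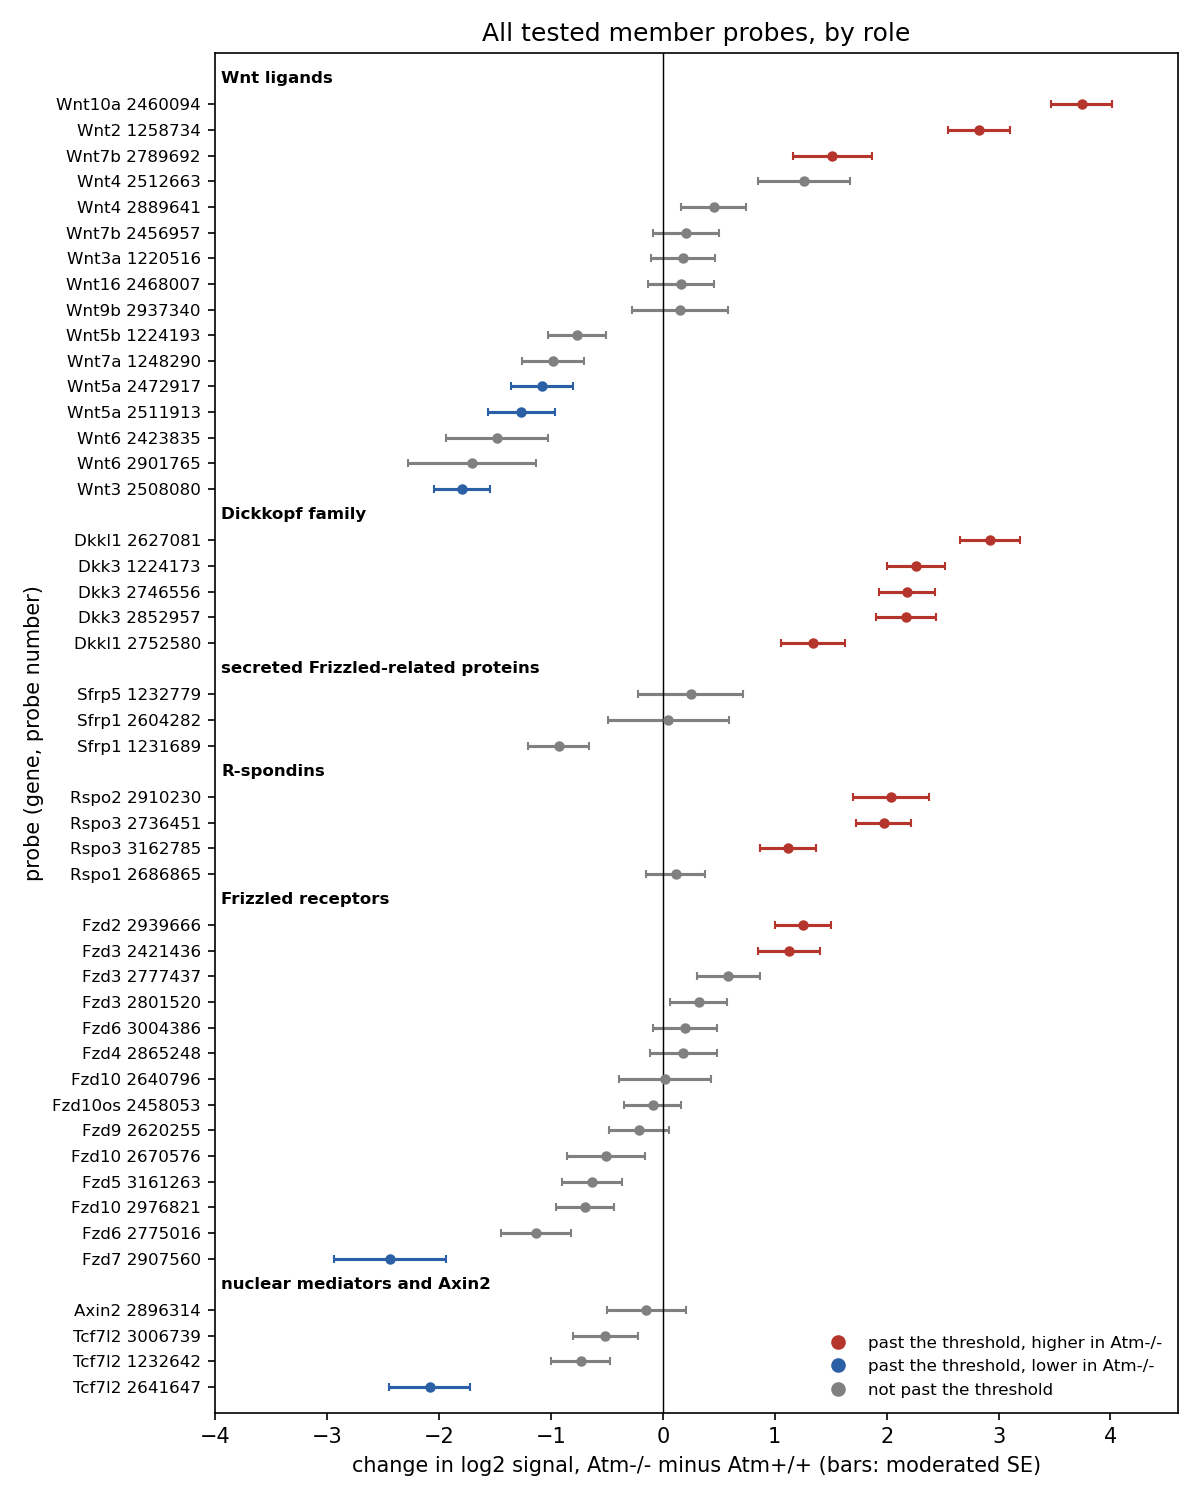
Change in log2 signal, Atm-/- minus Atm+/+ (horizontal axis), of each of the 46 tested member probes, grouped by role, with bars for the moderated SE. The 5 tested Dickkopf probes lie between 1.34 and 2.92, whereas the Wnt ligands spread from -1.80 (Wnt3) to 3.74 (Wnt10a) and the Frizzled receptors from -2.44 (Fzd7) to 1.25 (Fzd2).

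Frizzled receptors are the membrane proteins that bind Wnts, and the non-coding Fzd10os was counted with them. Of their 14 tested probes 2 were higher, 1 lower and 11 not past the threshold. At an unadjusted limma p under 0.05 the counts were 2 higher and 4 lower. Fzd7 had the largest change among them. It read 5.62 and 7.28 in Atm-/- against 8.94 and 8.83 in Atm+/+ and fell by 2.44 ± 0.50 (limma adjusted p = 0.0226). The Atm-/- samples were 1.66 apart, the widest gap between Atm-/- arrays at any tested member probe, with replicate 1 at background. Without replicate 1 the difference was -1.61 and was not past the threshold (adjusted p = 0.112), and without replicate 2 it was -3.27 (adjusted p = 0.00306). With all probes tested the call was lost (adjusted p = 0.0771).

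Fzd2 read 7.36 and 7.25 in Atm-/- against 5.95 and 6.16 in Atm+/+ and rose by 1.25 ± 0.25 (limma adjusted p = 0.0214). Fzd3, which guides axons together with the cadherin Celsr3 in mice, rose at 1 of 3 probes. ILMN_2421436, a probe annotated to no transcript, read 7.32 and 7.59 in Atm-/- against 6.13 and 6.51 in Atm+/+, a rise of 1.13 ± 0.28 (adjusted p = 0.0389). At ILMN_2777437 and ILMN_2801520 the differences had the same sign, 0.58 ± 0.28 and 0.32 ± 0.25, and did not pass (adjusted p = 0.216 and 0.442). Without an Atm-/- array neither gene stayed past the threshold (Fzd2 at 0.269 and 0.217, Fzd3 at 0.243 and 0.397 without replicates 1 and 2), and Fzd3 was also lost with all probes tested (adjusted p = 0.0530) and with an intensity trend.

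Fzd6 gave a difference of -1.13 ± 0.31 at ILMN_2775016 (limma adjusted p = 0.0568), with 5.83 and 6.39 in Atm-/- against 7.004 and 7.49 in Atm+/+, and 0.20 ± 0.29 at its dimmer probe. Fzd5 differed by -0.64 ± 0.27 at the single tested probe of its 4. The 3 probes of Fzd10 gave -0.70, -0.51 and 0.02, and Fzd10os, a non-coding transcript from the opposite strand beside Fzd10, gave -0.09 ± 0.25. Fzd9 (-0.21) and Fzd4 (0.18), the receptor of norrin in blood vessels, lay near the background level. Fzd1 was above background on 1 Atm+/+ array only, at 6.84, and Fzd8 likewise, at 5.71, so neither was tested.

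Tcf7l2 fell, and Axin2 did not pass the threshold. Tcf7l2, the TCF/LEF factor known in the adult mouse brain from thalamic and other diencephalic neurons, read 7.08 and 7.86 in Atm-/- at ILMN_2641647 against 9.23 and 9.89 in Atm+/+. It fell by 2.09 ± 0.36 (limma adjusted p = 0.0125), a call that ended when Atm-/- replicate 1 was dropped (adjusted p = 0.112) and held without replicate 2 (0.0209). Neither dimmer tested probe passed. ILMN_1232642 was at background in Atm-/-, at 5.01 and 5.30 against 6.00 and 5.78 in Atm+/+, a bound of at least 1.19-fold lower (adjusted p = 0.113), and ILMN_3006739 differed by -0.52 ± 0.29 (adjusted p = 0.280). The remaining 3 were at background on all arrays. Thalamic markers in the same samples summed to linear signals of 11100 and 12267 in Atm-/- against 21500 and 23285 in Atm+/+. Of the 10 thalamic markers, all tested and none at background in both samples of a genotype, 4 fell and 1 rose. The other 5 did not pass, and the median change of the list was -0.15. Slc17a6, the brightest of them in Atm+/+, read 11.40 and 11.55 in Atm-/- against 13.55 and 13.66 in Atm+/+. It made up most of the difference between the sums. The part of the thalamic markers in the fall of Tcf7l2 was not tested.

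Axin2, whose transcript is often used as a readout of beta-catenin signalling, read 9.11 and 9.26 in Atm-/- against 8.87 and 9.81 in Atm+/+. The Atm-/- samples lay inside the Atm+/+ values, and the difference was -0.15 ± 0.35 (limma adjusted p = 0.819). Lef1, the other TCF/LEF member, which in the brain is known from endothelium and thalamus, exceeded the background level on 1 array at 1 of its 4 probes and was not tested.

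Genes elsewhere in the pathway were described through 6 lists of known components, each gene by its brightest tested probe. Of 76 tested genes 10 rose (13.2%) and 5 fell (6.58%), where 7.50% of all 12229 genes rose and 6.89% fell. Their median change was 0.07, against -0.01 for all genes and 0.13 for the 30 tested members taken the same way, of which 9 rose and 4 fell. In either direction 43.3% of these members passed, where 14.4% of all genes did.

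Among 13 tested genes of Wnt secretion and secreted regulators 3 rose and 1 fell, with a median of 0.07. Frzb, a secreted Frizzled-related protein outside the symbol rule, read 7.08 and 6.86 in Atm-/- against background values of 4.97 and 5.35 in Atm+/+, at least 2.52-fold higher (limma adjusted p = 0.00740). Notum, an enzyme that inactivates Wnts by removing their lipid, rose by 1.52 ± 0.32 at its brightest probe (adjusted p = 0.0233) and differed by -0.09 ± 0.25 at its other. Igfbp4 rose by 1.78 ± 0.46 (adjusted p = 0.0478), with 11.15 and 10.92 in Atm-/- against 9.99 and 8.52 in Atm+/+, and by 2.51 without Atm+/+ replicate 1 or 1.04 without replicate 2. Its other probe differed by 0.85 ± 0.30 and did not pass (adjusted p = 0.106). Sostdc1, a secreted inhibitor of Wnt and BMP signals, fell by 1.34 ± 0.27 (adjusted p = 0.0205). Wls and Porcn, which every Wnt needs for its release, differed by -0.82 ± 0.27 and 0.41 ± 0.33 at their brightest probes and did not pass there or at their others, which gave -0.71 and -0.09 for Wls and -0.08 for Porcn.

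Of 8 tested coreceptors and genes of receptor turnover 1 rose and 2 fell, with a median of -0.04. The R-spondin receptors Lgr6 and Lgr5 fell, in the samples in which Rspo2 and Rspo3 rose. The remaining R-spondin receptor, Lgr4, had no tested probe, nor had the ligases Znrf3 and Rnf43. Lgr6 was at background in Atm-/- at 5.61 and 5.42, against 7.20 and 7.20 in Atm+/+, at least 2.95-fold lower (limma adjusted p = 0.00720). Lgr5 read 7.02 and 6.22 in Atm-/- against 8.31 and 7.82 in Atm+/+ and fell by 1.45 ± 0.35 (adjusted p = 0.0375). Lrp4 rose by 1.26 ± 0.27 at its brightest probe (adjusted p = 0.0264), with -0.24 ± 0.33 at the other. The coreceptor Lrp6 differed by 0.44 ± 0.33 at one probe and -0.15 ± 0.30 at the other.

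In the cytoplasmic part Axin1, the scaffold of the complex that destroys beta-catenin, rose by 1.08 ± 0.27 (limma adjusted p = 0.0421) among 17 tested genes with a median of 0.31. At an unadjusted p under 0.05, 7 of the 17 were higher and 0 lower. The share of all genes at that p is not given, so this count was not set against it. Csnk1d did not pass at its brightest probe (1.01 ± 0.28, limma adjusted p = 0.0552). It rose by 1.13 at ILMN_2739965 (adjusted p = 0.0385) and by 1.13 at ILMN_3103652 (adjusted p = 0.0408). Beta-catenin itself, Ctnnb1, differed by 0.04 ± 0.29 at its brightest probe and by -0.47 to 1.28 at its other 3, and none passed. Gsk3b differed by 0.86 ± 0.33 at one probe and -0.38 ± 0.25 at the other, and Apc by 0.50 ± 0.41 at its brighter probe, with the dimmer one at background in Atm-/- and lower there. Neither gene passed at any of these probes, whose signs differ within each gene. Of 15 nuclear partners Tle6 rose by 1.30 ± 0.27 (adjusted p = 0.0229) and Pygo2 by 1.09 ± 0.26 (adjusted p = 0.0369). The median was 0.21, with 0 falls at the brightest probes (2 at an unadjusted p under 0.05). Ctbp2 differed by -1.03 ± 0.31 at its brightest probe (limma adjusted p = 0.0752). At its dimmer probe it fell by 1.46 ± 0.31 (adjusted p = 0.0247). Of 12 planar cell polarity genes, which orient cells within a tissue, Prickle1 rose by 1.93 ± 0.26 (adjusted p = 0.00505) and Prickle2 by 1.76 ± 0.25 (adjusted p = 0.00605), with a median of -0.18 and 0 falls (1 at an unadjusted p under 0.05). The Prickle2 probe is annotated to no transcript. Prickle1 rose at its second tested probe as well, by 1.57 ± 0.27 (adjusted p = 0.0126).

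Known targets of beta-catenin moved apart from each other. Of 13 tested genes 2 rose and 3 fell, with a median of -0.12. Notum and Lgr5 are described above. Sp5, a transcription factor gene that is a direct target of the pathway, read 5.001 and 5.64 in Atm-/- against 9.07 and 8.35 in Atm+/+. It fell by 3.39 ± 0.35 (limma adjusted p = 0.00189), the largest change in these lists. Atm-/- replicate 1 was at background and replicate 2, at 5.643, just above the level of 5.640, so the size of the fall is imprecise. Cd44 fell by 1.61 ± 0.33 (adjusted p = 0.0222) and by 1.42 ± 0.31 at another probe, while its last tested probe gave -0.06 ± 0.30. Ccnd2, a cyclin gene, rose at all 3 of its tested probes, by 1.20 and 1.61 at ILMN_2700166 and ILMN_2700168 and at least 1.59-fold at ILMN_1225932, which was at background in Atm+/+. Nkd1, Nkd2 and Ccnd1 differed by -0.34, -0.12 and 0.49 at their brightest probes without passing. Id2 fell by 1.22 ± 0.27 at ILMN_1236868 (limma adjusted p = 0.0270), and Nrcam rose by 1.25 ± 0.25 at ILMN_1229656 (adjusted p = 0.0204). Neither passed at its other tested probes, the brightest among them, so both are outside the counts of this list. Of the 15 genes called in the lists 1, Sp5, held whichever array was left out (adjusted p up to 0.00653). Without Atm-/- replicate 1 the calls kept were 2, without Atm-/- replicate 2 they were 1 and without either Atm+/+ array all 15, Prickle1 being the gene kept only without replicate 1 (adjusted p = 0.0483, against 0.0670 without replicate 2). With all probes tested the calls of Axin1, Cd44, Lgr5, Igfbp4 and Notum were lost as well (adjusted p = 0.0502 to 0.128). Calls over all probes were likewise fewer without an Atm-/- array and more numerous without an Atm+/+ array.

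**Figure D3:**
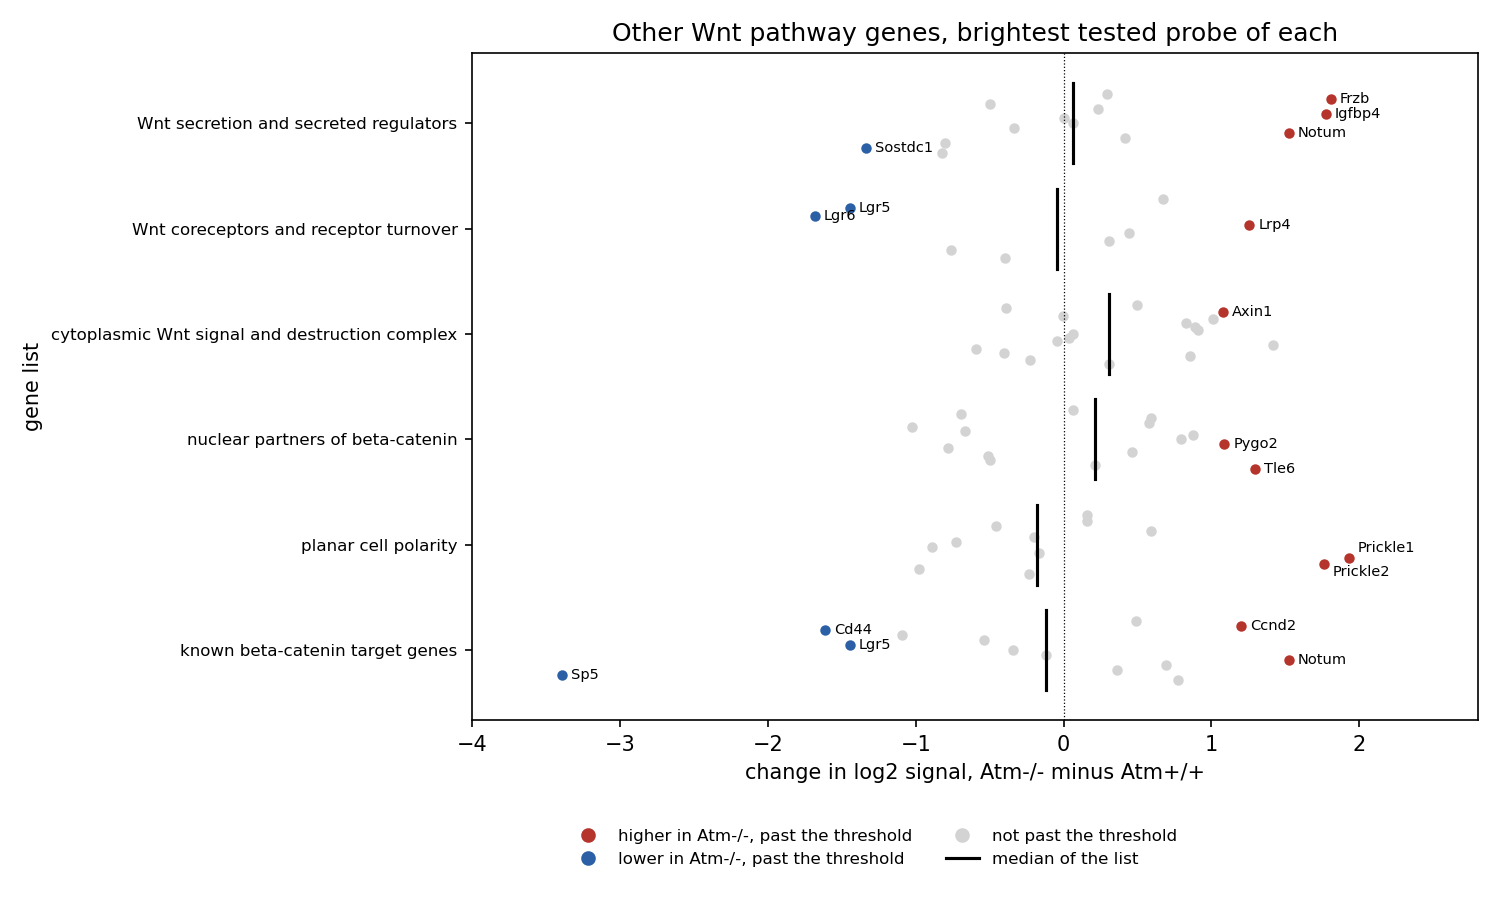
Change in log2 signal, Atm-/- minus Atm+/+ (horizontal axis), of the brightest tested probe of each gene in the 6 lists (rows), with named points for genes past the threshold and a vertical bar for the median of each list. The medians lie between -0.18 and 0.31, and Sp5 at -3.39 is the point farthest from 0.

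The arrays of a genotype differed from each other by unequal amounts. The median distance between the arrays of a genotype at the tested member probes was 0.29 in Atm-/- and 0.37 in Atm+/+, against 0.19 and 0.40 over all tested probes. The distance was over 1 on the log2 scale at 1 member probe in Atm-/- (Fzd7) and at 7 in Atm+/+, at Wnt6 (2 probes), Sfrp1, Sfrp5, Wnt9b, Wnt4 and Fzd10. Fits without 1 array kept the filter taken from all arrays. The called probes of Wnt10a, Wnt2 and Dkkl1 had passed that filter through the Atm-/- arrays alone. Leaving out an Atm-/- array gave fewer calls over all probes, and leaving out an Atm+/+ array gave more. Of the 18 calls, 8 were kept without Atm-/- replicate 1, 8 without Atm-/- replicate 2 and all 18 without either Atm+/+ array. The 6 probes that kept their call under each of these, of Wnt10a, Wnt2, Dkk3 (3 probes) and Dkkl1 (1 probe), all rose.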

How the data were processed

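Brain total RNA, 2 samples of Atm-/- and 2 of Atm+/+ genotype, was hybridised to Illumina bead arrays. The authors' deposited processed values were used, taken as log2 signals from their range of 4.47 to 16.1. How the signals were processed is not given in the sources used here. At equal rank the arrays differed by at most 0.0792, as after quantile normalization, so a shift shared by most genes would not show. A table of signals before normalization holds 8 per-sample columns whose names match no sample's labels, and these were not used. Symbols came from the platform annotation (34885 probes with 1 symbol, 18 with several, which were not named), and looking them up by gene ID in RefSeq matched 99.8% and changed 0.

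The background level was the mode of all values (5.054, density bandwidth 0.05) plus 3 SD of the values under it (0.195). Probes above it on 2 arrays or more were fitted in R 4.3.3 with limma 3.58.1 (lmFit, then eBayes), without covariates, with 2 residual and 5.22 prior degrees of freedom. The fit was tested on simulated data. Members, pathway and marker lists were chosen with earlier results of these data known. All members are named, with values per array for those past the threshold, and from each pathway list up to 4 genes of smallest p past it; other pathway genes named were chosen after their values were seen. The number of arrays limits the precision. Same-numbered samples deviated with a correlation of 0.06 over probes, so the numbers were not taken as pairs. Alternatives changed the filter, the background level, the normalization, the variance model, the replicate block and the arrays included.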

Additional observations from a re-analysis of the deposited data

How the results depend on the processing

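Applying quantile normalization again, setting the background level at 2 SD and filtering on the mean changed no count of calls by over 1.5 times, and cyclic loess changed none either, though it turned the sign of the Fzd10 probe ILMN_2640796 (-0.0050). With all probes tested, 2 member probes and 3 other pathway genes fell. With arrays weighted by genotype 8 member probes fell. The replicate block, which shares only a number between samples, gave 4574 calls over all probes, 14 rises and 10 falls among member probes, and 14 rises and 9 falls among other pathway genes. Leaving out 1 array gave 666 to 8320 calls over all probes, 6 to 17 rises and 0 to 13 falls of member probes, and 0 to 24 rises and 1 to 23 falls of other pathway genes, lowest without an Atm-/- array and highest without an Atm+/+ array. Without Atm-/- replicate 1, where 0 member probes fell, 7 were lower at an unadjusted limma p under 0.05; without Atm-/- replicate 2, where 0 other pathway genes rose, 11 were higher at that p. Leaving out 1 array turned the sign of 11 member probes that had not passed, with ranges of -0.56 to 0.60 for Fzd10 (ILMN_2640796), -0.088 to 0.45 for Fzd4, -0.077 to 0.47 for Fzd6 (ILMN_3004386), -0.62 to 0.32 for Axin2, -0.079 to 0.30 for Rspo1, -0.85 to 0.94 for Sfrp1 (ILMN_2604282), -0.49 to 0.99 for Sfrp5, -0.11 to 0.43 for Wnt16, -0.081 to 0.44 for Wnt3a, -0.091 to 0.50 for Wnt7b (ILMN_2456957) and -0.49 to 0.80 for Wnt9b. Sfrp1 at -0.85, without Atm+/+ replicate 1, was past the threshold (adjusted p = 0.0201). These fits have 1 residual degree of freedom and assume that the lone sample varies like the other genotype. The causes were not tested. The planned neqc correction was not run, since its columns could not be mapped. With 2 arrays a genotype, a miss of the threshold does not show that a gene did not differ.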

Other observations

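Members that neighbour each other on a chromosome were read side by side, with no test of the pairs. Wnt10a and Wnt6 lie within 20 kb of each other. Wnt10a rose by 3.74, whereas neither tested Wnt6 probe passed the threshold, at differences of -1.71 and -1.48. The annotated spans of Wnt3 and Wnt9b overlap in the gene annotation. Their promoter windows lie apart and on opposite strands, at chr11:103773925-103774174 (plus) for Wnt3 and chr11:103749822-103750071 (minus) for Wnt9b. Starts at these windows would leave the genes apart, so the sources differ on the overlap. Wnt3 fell by 1.80, whereas Wnt9b at its tested probe read 5.70 and 6.04 in Atm-/- inside the Atm+/+ values of 5.07 and 6.36. The other Wnt9b probe, ILMN_1231288, was too dim to be tested. It was lower in Atm-/-, at 5.51 and 5.29 against 5.63 and 6.08 in Atm+/+. In the pairs Wnt1 with Wnt10b and Wnt3a with Wnt9a, Wnt3a alone had a tested probe, at a difference of 0.18.

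Tested probes of 1 gene gave different answers at several members. Of 12 member genes with more than 1 tested probe, 4 passed at all of them (Dkk3, Dkkl1, Rspo3 and Wnt5a), 3 at some (Fzd3, Tcf7l2 and Wnt7b) and 5 at none. The signs differed between tested probes of Fzd10, Fzd6 and Sfrp1. Wnt7b and Tcf7l2 passed at the brighter probe and not at the dimmer ones. Wnt6, at which the Atm+/+ samples were up to 1.96 apart, stood beside meningeal markers whose summed linear signals were 9803 and 11162 in Atm-/- and 27511 and 24284 in Atm+/+. Of the 9 tested meningeal markers 5 fell, 0 rose and none was at background in both samples of a genotype. Their part in the difference of Wnt6 was not tested.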
